A study of Mus musculus with 30 samples.

Results

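The 9 genes described here encode receptors for the hormones, transmitters and ions that stimulate or restrain secretion by the stomach. They are Cckbr, Hrh2, Chrm3, Vipr1, Adcyap1r1, Galr1, Casr, Sstr1 and Sstr2. They were chosen by name, and all 9 had a row among the 25942 named genes of each of the 2 deposited count tables. The study sequenced RNA of mouse stomach cells sorted by flow cytometry, in 30 libraries that form 10 groups of 3. The labels give the genotype of every library as WT, and the cells came from 2 reporter lines, Lgr5-DTR-GFP and Sox2-Tomato. In the first line, cells that transcribe Lgr5 carry green fluorescent protein and the diphtheria toxin receptor, and in the second, Tomato fluorescence was used to sort cells by Sox2. From the antrum, also labelled pylorus, Lgr5-positive and Lgr5-negative cells were sorted in the Lgr5 line, and cells with high, low or no Tomato (Sox2-high, Sox2-low, Sox2-negative) in the Sox2 line. From the corpus, EpCAM-high Lgr5-positive, EpCAM-low Lgr5-positive and Lgr5-negative cells were sorted in the Lgr5 line, and Sox2-positive (called Sox2 low in their descriptions) and Sox2-negative cells in the Sox2 line. No treatment is labelled. The sources used here do not give age, sex or the number of animals behind a library, so each p-value reflects how far such libraries spread.

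Acid is secreted by parietal cells of the corpus, which carry receptors for histamine, acetylcholine and gastrin. Gastrin from the G cells of the antrum acts mainly on the gastrin receptor of enterochromaffin-like (ECL) cells, and these release the histamine that reaches the parietal cell. Somatostatin from D cells restrains all of these cells through Gi-coupled receptors. Histamine H2, VIP and PACAP receptors couple to Gs and cAMP, the gastrin and M3 muscarinic receptors couple to Gq and calcium, and the somatostatin and galanin receptors couple to Gi.

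Promoter sequence was taken for members whose levels are followed below in more than 1 group. RefSeq promoters (build GRCm38.p6) were found for 7 of the 9 members, and each window ran from 250 bases before to 50 after the annotated start. The 250 bases before the start are shown for 4 members, because Cckbr and Sstr2 had their highest mean CPM in the same cells, Hrh2 was high in the corpus and low in the antrum, and Casr had the opposite pattern. Capitals mark the matches to CANNTG, the E-box core, and to TGACGTCA, the cAMP response element, both searched on both strands with no overlap between the matches. Bases are written 5′ to 3′ on the strand of the gene.
Cckbr: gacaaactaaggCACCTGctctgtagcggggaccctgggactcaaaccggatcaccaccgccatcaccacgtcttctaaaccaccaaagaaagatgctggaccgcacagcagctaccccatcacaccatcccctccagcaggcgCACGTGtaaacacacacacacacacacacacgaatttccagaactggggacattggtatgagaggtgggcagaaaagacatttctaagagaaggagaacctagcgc
Sstr2: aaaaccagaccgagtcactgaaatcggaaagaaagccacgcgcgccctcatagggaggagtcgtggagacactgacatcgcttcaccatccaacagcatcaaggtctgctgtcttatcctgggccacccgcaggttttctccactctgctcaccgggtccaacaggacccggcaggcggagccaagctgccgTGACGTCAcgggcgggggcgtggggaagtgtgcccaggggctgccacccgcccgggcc
Hrh2: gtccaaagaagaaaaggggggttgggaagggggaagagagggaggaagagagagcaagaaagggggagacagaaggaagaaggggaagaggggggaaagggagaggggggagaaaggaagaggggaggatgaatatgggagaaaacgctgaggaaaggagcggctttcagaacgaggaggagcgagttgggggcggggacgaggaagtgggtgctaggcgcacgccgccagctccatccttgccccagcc
Casr: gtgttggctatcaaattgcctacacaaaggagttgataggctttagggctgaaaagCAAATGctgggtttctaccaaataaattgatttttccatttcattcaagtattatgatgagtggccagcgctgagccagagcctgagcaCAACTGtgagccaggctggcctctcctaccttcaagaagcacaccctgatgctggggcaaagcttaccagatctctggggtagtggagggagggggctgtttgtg

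These stretches lie at chr7:105425481-105425730 (Cckbr, plus strand), chr11:113619077-113619326 (Sstr2, plus strand), chr13:54191883-54192132 (Hrh2, plus strand) and chr16:36562135-36562384 (Casr, minus strand), all upstream of the annotated transcript. The Cckbr stretch holds CANNTG at positions -238 and -106, counted from the annotated start, and the Casr stretch holds it at -194 and -105. Of the 250 bases before the start of 32851 RefSeq promoters, 66.2% hold CANNTG. The Sstr2 stretch holds TGACGTCA at position -58, as do 1.5% of all such stretches. ACAATG, a core letter string of Sox factors found in 12.6% of all windows of 300 bases, and TATAAA, the TATA box found in 13.6% of them, had no match in the windows of the 7 members. Chrm3 had 1 further CANNTG, at position -1. The GC content of the shown stretches was 53.6% in Cckbr, 63.6% in Sstr2, 60% in Hrh2 and 48.8% in Casr, against a median of 52.4% over all stretches of that length. A match is a string of letters and not a measured site.

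The libraries held 18602964 to 62312270 reads on named genes. Levels are given as CPM, reads scaled to 1000000 per library, counted from reads recovered from the deposited values. They are a description and are not tested between the antrum and the corpus. Sorted cells numbered 1630 to 142000 per library, with 1630 to 3268 in the Sox2-high and 2580 to 5230 in the EpCAM-high libraries. In the 3 EpCAM-low libraries the 10 most abundant genes took 75.8 to 88.2% of reads, against 6.47 to 46.7% in the other 27, and the marker sum of chief cells was 408943 to 489359 CPM. The gates were checked on their own genes. Lgr5 was at 110.4 to 196 CPM in antrum Lgr5-positive and 3.01 to 15.9 in Lgr5-negative libraries, and at 83.3 to 205, 13 to 16.7 and 2.05 to 3.48 in corpus EpCAM-high, EpCAM-low and Lgr5-negative libraries. Sox2 was at 52.3 to 165 CPM in Sox2-high, 16.1 to 37.6 in Sox2-low and 1.4 to 22.1 in Sox2-negative antrum libraries, so the 2 lower gates overlapped, and at 12 to 16.7 and 1.31 to 3.17 in Sox2-positive and Sox2-negative corpus libraries. Gast, which encodes gastrin, marked the antrum (6822 to 195469 CPM against at most 4.66 in 14 of 15 corpus libraries), and corpus Sox2-positive library 2 held 167 CPM. Antrum Sox2-negative library 1 stood apart, with 195469 CPM of Gast against 22117 and 73696 CPM in the other two, and an immune marker sum of 678 against 60.1 and 75.9 CPM. In corpus Sox2-negative cells, library 2 had an immune sum of 648 against 69.1 and 74 CPM and library 1 a mast cell marker sum of 1045 against 47.7 and 133.5 CPM. Calls that changed when such a library was left out are named with the comparison. In sorted bulk RNA, fewer cells of a type and less RNA per cell cannot be told apart.

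Cckbr, the gastrin and cholecystokinin receptor that drives histamine release by ECL cells, was most abundant in corpus cells outside the Lgr5 and Sox2 gates. In the corpus its level was 186 ± 86.4 CPM (mean ± SD, n = 3, as in all levels below) in Sox2-negative, 49.3 ± 6.16 in Lgr5-negative, 16.4 ± 2.47 in Sox2-positive, 6.33 ± 2.01 in EpCAM-high and 4.09 ± 2.43 in EpCAM-low libraries. In the antrum it was 7.24 ± 6.57 CPM in Sox2-negative, 7.13 ± 2.17 in Sox2-high, 1.91 ± 1.2 in Lgr5-positive, 1.22 ± 0.195 in Sox2-low and 1.1 ± 1.04 in Lgr5-negative libraries. The 3 highest groups, all from the corpus, did not overlap one another, and from there on each group in the order of means overlapped the next. In normalized counts, the deposited scale, the EpCAM-low mean (493) was larger than that of the Sox2-positive libraries (388). The Sox2-negative antrum mean rests on library 1, at 14.7 CPM against 4.62 and 2.39.

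Hrh2, the histamine H2 receptor through which histamine drives parietal acid secretion, had a larger mean in every corpus group than in any antrum group. The corpus levels were 56.8 ± 20.1 CPM in Sox2-negative, 47.8 ± 9.93 in Sox2-positive, 16.2 ± 12.1 in EpCAM-low, 15.1 ± 12.6 in EpCAM-high and 14 ± 4.19 in Lgr5-negative libraries. Both Sox2 groups overlapped each other and lay above the 3 groups of the Lgr5 line in CPM, which overlapped one another. With TMM scaling (edgeR's correction for a few genes that take many reads) the EpCAM-low mean was the largest, at 57.1 against 45.2 and 41.8 CPM in Sox2-negative and Sox2-positive libraries. The antrum levels were 2.86 ± 3.71 CPM in Lgr5-positive, 2.57 ± 1.36 in Sox2-negative and 0.655 ± 0.296, 0.63 ± 0.548 and 0.628 ± 0.544 in Sox2-low, Sox2-high and Lgr5-negative libraries. The antrum libraries with most Hrh2 were Lgr5-positive library 2 at 7.1 CPM and Sox2-negative library 2 at 4 CPM, both above the lowest corpus library at 3.83 CPM.

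Chrm3, the muscarinic receptor of parietal and chief cells, was low in every group. Its group means ran from 1.68 ± 1.1 CPM in corpus EpCAM-low to 14.1 ± 7.01 CPM in antrum Lgr5-positive libraries, and every group overlapped its neighbour in the order of means. The other means were 7.78 ± 1.31, 6.53 ± 1.78, 6.16 ± 0.504 and 5.41 ± 1.8 CPM in antrum Sox2-negative, Sox2-low, Lgr5-negative and Sox2-high libraries, and 7.45 ± 1.01, 3.93 ± 0.413, 3.22 ± 1.23 and 2.7 ± 0.6 CPM in corpus Sox2-positive, Sox2-negative, EpCAM-high and Lgr5-negative libraries.

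Vipr1, which binds vasoactive intestinal peptide (VIP) and PACAP, had a corpus pattern close to that of Cckbr at a lower level. It was at 26.4 ± 8.48 CPM in corpus Sox2-negative, 5.33 ± 0.773 in Lgr5-negative, 1.14 ± 1.15 in Sox2-positive, 0.557 ± 0.903 in EpCAM-high and 0.219 ± 0.38 in EpCAM-low libraries. The Sox2-negative libraries stood above all other groups. The antrum means were 0.291 to 2.2 CPM, with 1 library above 2 CPM (Sox2-negative library 3, at 5.69), and 4 of the 30 libraries held no read.

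Adcyap1r1 encodes PAC1, the receptor that prefers PACAP and through which PACAP releases histamine from rat ECL cells. Antrum Sox2-high cells held 8.11, 13.3 and 23.4 CPM in the 3 libraries, and all other libraries less than 4 CPM. With TMM scaling the corpus EpCAM-low mean was 10.7 CPM, against 11 CPM in antrum Sox2-high libraries. The other 9 groups had means of 0.743 to 2.63 CPM, each overlapping its neighbour, namely 2.63 ± 1.14 in corpus Sox2-positive, 2.52 ± 0.247 in EpCAM-low, 1.77 ± 1.35 in Sox2-negative, 1.7 ± 1.03 in EpCAM-high and 0.743 ± 0.179 in Lgr5-negative libraries. In the antrum they were 2.05 ± 0.823 in Sox2-low, 1.63 ± 0.821 in Lgr5-negative, 1.56 ± 0.235 in Lgr5-positive and 1.06 ± 0.601 in Sox2-negative libraries.

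Galr1, a Gi-coupled galanin receptor, and Sstr1, a Gi-coupled somatostatin receptor, had larger means in every antrum group than in any corpus group. The highest corpus library of Galr1 (8.19 CPM) lay above its lowest antrum library (6.28 CPM). Galr1 was at 103 ± 37.9 CPM in Sox2-high, 57.1 ± 27.5 in Sox2-negative, 18.2 ± 5.37 in Lgr5-negative, 14.3 ± 13.9 in Lgr5-positive and 14.3 ± 8.04 in Sox2-low antrum libraries. In the corpus it was at 6.34 ± 1.61 CPM in Sox2-negative, 2.87 ± 0.857 in Lgr5-negative, 0.668 ± 0.698 in EpCAM-high and 0.127 ± 0.11 in Sox2-positive libraries, and no EpCAM-low library held a read. Sstr1 was at 83.7 ± 26.4 CPM in Sox2-high, 74.4 ± 38.1 in Sox2-negative, 23.2 ± 8.58 in Lgr5-negative, 21.7 ± 5.91 in Sox2-low and 13.5 ± 15.2 in Lgr5-positive antrum libraries. All 15 antrum libraries, at 3.98 to 116 CPM, lay above all 15 corpus libraries, at 0 to 3.17 CPM. The corpus means of Sstr1 were 2.2 ± 0.865 CPM in EpCAM-high, 1 ± 0.141 in Lgr5-negative, 0.762 ± 0.267 in Sox2-positive and 0.481 ± 0.248 in Sox2-negative libraries, with 1 read in all in the 3 EpCAM-low libraries.

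Casr, the calcium-sensing receptor by which G cells respond to calcium and amino acids, also had larger means in every antrum group. Its highest corpus library (4.16 CPM) lay above its lowest antrum library (1.18 CPM). Its antrum means were 41 ± 27.3 CPM in Sox2-negative, 23.9 ± 20.7 in Sox2-high, 18.1 ± 12.1 in Sox2-low, 15.5 ± 10.7 in Lgr5-negative and 5.55 ± 5.68 in Lgr5-positive libraries. The corpus means were 2.52 ± 1.5 CPM in Sox2-negative, 1.68 ± 0.88 in Lgr5-negative, 1.56 ± 0.324 in Sox2-positive, 0.812 ± 0.206 in EpCAM-high and 0.0522 ± 0.0904 in EpCAM-low libraries. The lowest value of each of the 5 antrum groups was in library 1 (1.18 to 22 CPM). Sstr2, the somatostatin receptor known in mice to hold back ECL and acid secretion, was found in both tissues. It was at 67.4 ± 14.9 CPM in corpus Sox2-negative, 27.6 ± 4.72 in Sox2-positive, 23.2 ± 1.79 in Lgr5-negative, 13.2 ± 6.45 in EpCAM-high and 11.3 ± 8.72 in EpCAM-low libraries. In the antrum it was at 19.8 ± 7.99 CPM in Sox2-high, 15.5 ± 8.59 in Sox2-negative, 5.96 ± 2.21 in Sox2-low, 5.78 ± 0.475 in Lgr5-negative and 3.81 ± 2.05 in Lgr5-positive libraries. The corpus Sox2-negative libraries stood above all others in CPM, whereas in normalized counts (1259, 1903 and 1360.1) they overlapped the EpCAM-low libraries (1175, 645 and 2061).

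**Figure D1:**
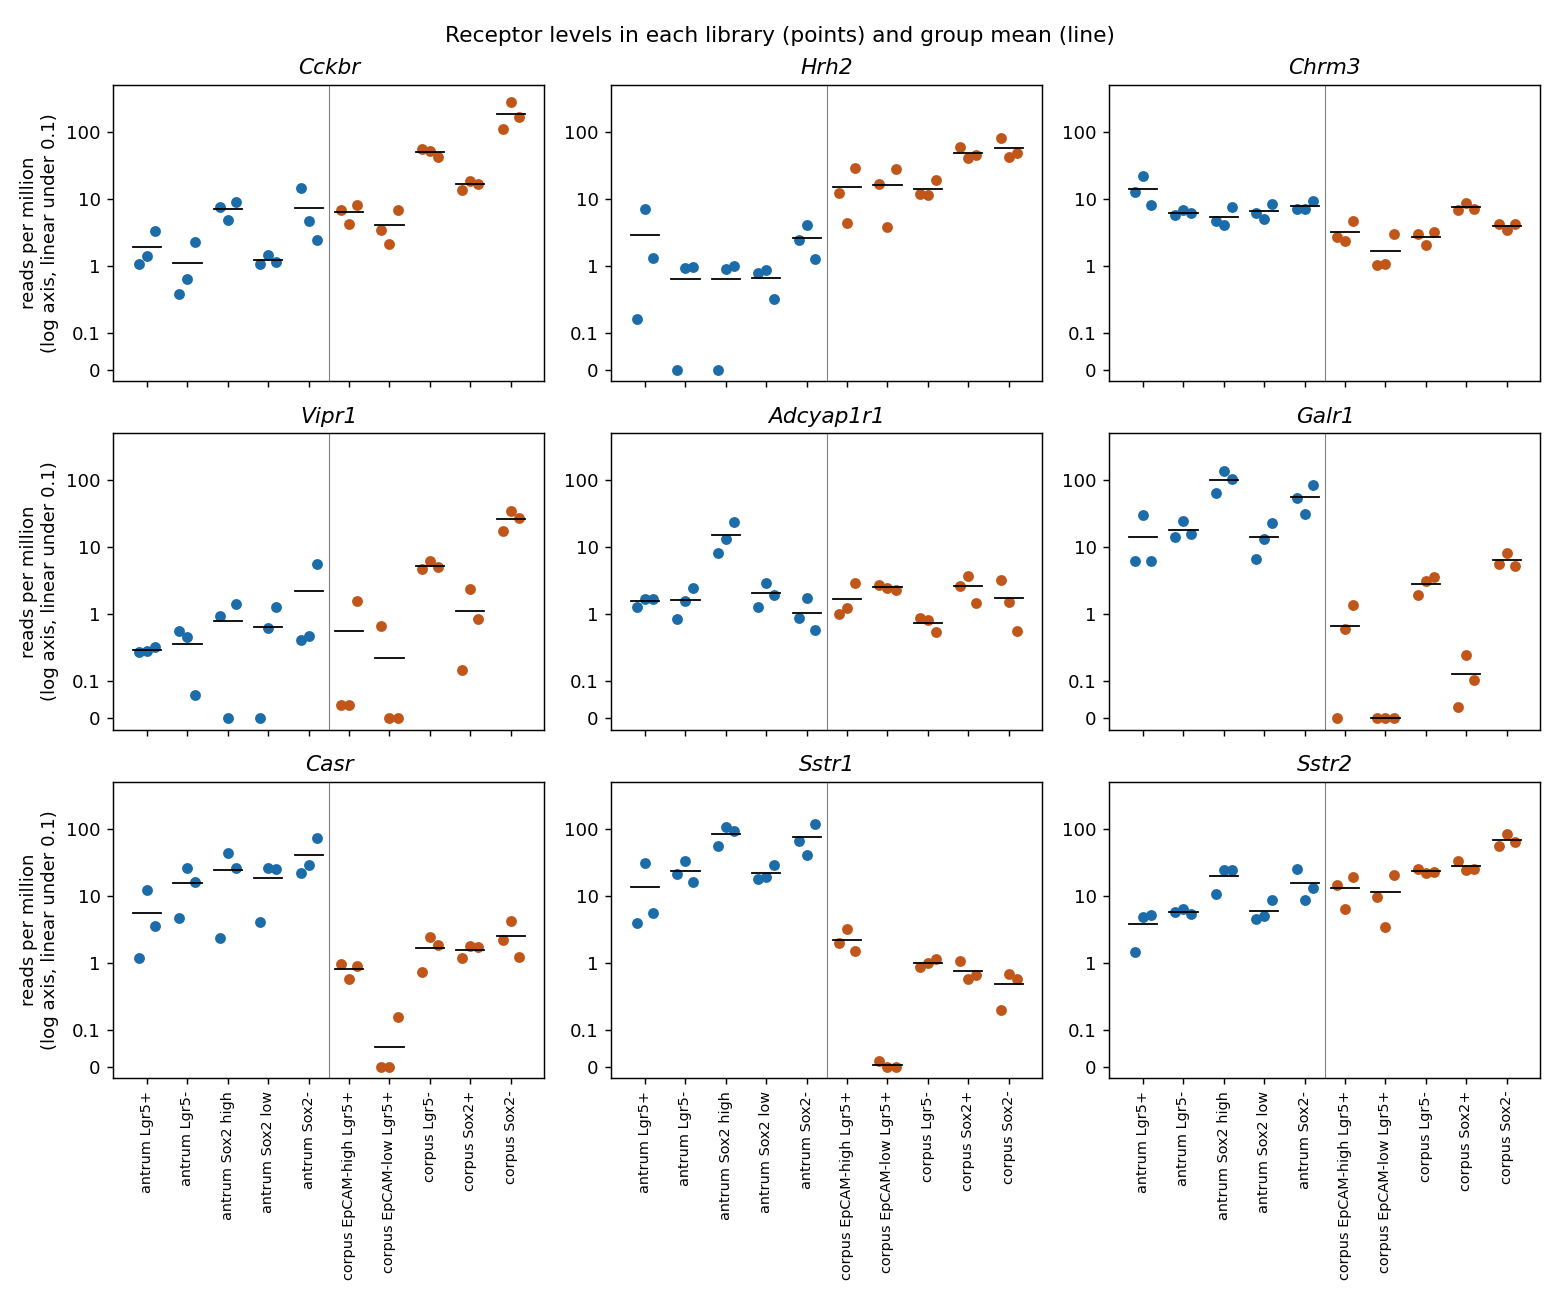
Level of each receptor in each of 30 libraries, in CPM on a logarithmic axis that is linear under 0.1. Points are libraries (blue antrum, orange corpus) and lines are group means. Sstr1 and Galr1 sit high in the antrum, Hrh2 in the corpus, and Cckbr and Vipr1 are highest in the corpus Sox2-negative libraries.

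Per kilobase of exon, the receptors could be set against one another. In corpus Sox2-negative cells Cckbr led with 64.9 CPM per kilobase, followed by Sstr2 (31.5), Hrh2 (9.57), Vipr1 (4.55) and Galr1 (2.12). In antrum Sox2-high cells the 2 Gi-coupled receptors Sstr1 (40.9) and Galr1 (34.3) led, followed by Sstr2 (9.23), Casr (5.07), Cckbr (2.49) and Adcyap1r1 (2.27). The order of the last 3 differed between libraries. In library 1 Casr (0.501) lay below Cckbr (2.66) and Adcyap1r1 (1.23), and in library 3 Adcyap1r1 (3.55) lay above Cckbr (3.15). In corpus EpCAM-low cells Sstr2 (5.26) and Hrh2 (2.73) were the most abundant per kilobase, although in library 2 Cckbr (0.732) lay above Hrh2 (0.646). In antrum Lgr5-positive cells Sstr1 (6.62) and Galr1 (4.79) were the most abundant. The last pair rests on library 2, where Sstr1 and Galr1 were at 15.2 and 10.15 CPM per kilobase, against 1.94 and 2.11 in library 1, where Chrm3 was at 1.99, and 2.72 and 2.10 in library 3, where Sstr2 was at 2.40.

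Sox2-high cells of the antrum carried more Adcyap1r1, Galr1 and Sstr1 than Sox2-low cells of the same sort. Tests were run with limma on log2(normalized count + 1), the normalized counts being the deposited values, with Benjamini-Hochberg (BH) adjustment over all genes of the fit. Of the 9 receptors, 3 rose and none fell at an adjusted p under 0.05, against 6.14% of all genes tested that rose and 7.9% called in either direction. The median log2 difference was 1.84 over the 9 and 8.84e-05 over all genes. The normalized counts of Galr1 were 1646, 3055 and 2224 in Sox2-high and 155, 264 and 429 in Sox2-low libraries. Every Sox2-high library lay above every Sox2-low library (log2 difference 3.10, SE 0.48, limma BH adjusted p = 0.00695). Adcyap1r1 had 210.1, 293 and 498 normalized counts in Sox2-high and 29.9, 57.3 and 36.4 in Sox2-low libraries, again with no overlap (log2 difference 2.95, SE 0.54, limma BH adjusted p = 0.0138). Sstr1 had 1406, 2309 and 1942 normalized counts in Sox2-high and 413, 368 and 537 in Sox2-low libraries, also apart (log2 difference 2.09, SE 0.39, limma BH adjusted p = 0.0151). With the sort day as a block, 30.4% of all genes were called and 5 receptors rose, the other two being Cckbr and Sstr2. Cckbr had 197, 104 and 191 against 25.1, 28.3 and 21.5 normalized counts (log2 difference 2.62, SE 0.70, limma BH adjusted p = 0.0519, and 0.014 in the blocked fit). Sstr2 had 274, 535 and 518 against 103, 97.1 and 160.4 (log2 difference 1.84, SE 0.52, limma BH adjusted p = 0.0616, and 0.0269 in the blocked fit). In both genes the groups did not overlap. Without 1 library, the call of Adcyap1r1 ended in 4 of 6 cases (Sox2-low library 1 or 3, Sox2-high library 2 or 3; log2 2.61 to 2.995, adjusted p = 0.0551 to 0.0637) and that of Sstr1 in 4 of 6 (Sox2-low library 1 or 2, Sox2-high library 2 or 3; log2 1.93 to 2.05, adjusted p = 0.0551 to 0.0744), while Sstr2 passed without Sox2-high library 1 (2.16, adjusted p = 0.0425). Hrh2, Chrm3, Vipr1 and Casr did not pass (-0.80, -0.12, 0.41 and 0.18, limma BH adjusted p = 0.763, 0.896, 0.929 and 0.947).

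The same libraries differed in endocrine transcripts. The 12 pan-endocrine markers summed to 79906 to 120594 CPM in Sox2-high and 1362 to 2827 in Sox2-low libraries (9 rose and 1 fell), the 4 enterochromaffin markers to 84444 to 134306 and 765 to 1749 (4 rose), and the 3 ECL markers, of which Chga is shared by all 3 lists, to 21191 to 34506 and 208 to 562 (3 rose). Most of the ECL sum was Chga. Hdc and Slc18a2, the ECL markers other than Chga, had means of 176 and 271 CPM in Sox2-high libraries. Their means in corpus Lgr5-negative libraries were larger, at 529 and 305 CPM. The ECL sum therefore does not rank the groups by these 2 genes. No marker of these 3 lists was at 0 in either group. The 9 tuft markers summed to 100.3 to 360.2 and 831 to 2165 CPM (6 fell). Of 8 nerve and glia markers, 4 of 6 tested rose, with sums of 77 to 138 and 16.7 to 28.3 CPM and Sox10 at 0 in the Sox2-high libraries. The part of these markers in the receptor differences was not tested.

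Among ligands and their synthesis, 2 of 6 rose and 1 fell (median 0.28). The vesicular monoamine transporter Slc18a2 (6.37, SE 0.90, adjusted p = 0.00506) and the histamine-forming enzyme Hdc (4.12, SE 1.03, adjusted p = 0.0428) rose, and somatostatin, Sst (-2.46, SE 0.55, adjusted p = 0.0286), fell. Of other receptors of the same families, 0 of 13 rose and 1 fell (median 0.83), the secretin receptor Sctr (-3.51, SE 0.63, adjusted p = 0.0135), and of other receptors reported to act on gastric secretion, 1 of 11 rose and 0 fell (median -0.59), the beta-1 adrenoceptor Adrb1 (3.73, SE 0.87, adjusted p = 0.0327). Downstream, 3 of 14 rose and 0 fell (median 0.56) of the G protein alpha subunits, among them Gnaz (2.51, SE 0.32, adjusted p = 0.00312) and Gnao1 (1.76, SE 0.40, adjusted p = 0.0316) of the Gi family and Gna14 (1.56, SE 0.32, adjusted p = 0.0218) of the Gq family. Of adenylyl cyclase and cAMP genes, 3 of 22 rose and 0 fell (median 0.27). These were the protein kinase A regulatory subunits Prkar1b (2.53, SE 0.42, adjusted p = 0.0097) and Prkar1a (1.32, SE 0.25, adjusted p = 0.0154) and the cAMP-responsive modulator Crem (2.01, SE 0.45, adjusted p = 0.0292). Of phospholipase C and calcium genes, 3 of 19 rose and 1 fell (median -0.096), with Prkce (3.26, SE 0.39, adjusted p = 0.00253), Prkcb (2.41, SE 0.44, adjusted p = 0.0138) and Plcb4 (1.47, SE 0.30, adjusted p = 0.021) higher and Plcb2 (-4.40, SE 0.62, adjusted p = 0.00498), the tuft cell phospholipase, lower. Of desensitization and RGS genes, 2 of 15 rose and 1 fell (median 0.22), with the arrestins Arrb2 (1.61, SE 0.28, adjusted p = 0.011) and Arrb1 (-1.45, SE 0.33, adjusted p = 0.0313) moving apart and Grk3 (1.43, SE 0.36, adjusted p = 0.0419) higher. The number before each SE is the log2 difference, and the p is limma's with BH adjustment.

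Against Sox2-negative cells, Adcyap1r1 was the receptor that rose in Sox2-high cells, as 1 of 9 passed, where 2.15% of all genes were called. It had 210.1, 293 and 498 normalized counts in Sox2-high and 22.7, 34.6 and 11.1 in Sox2-negative libraries, with a clear gap between the groups (log2 difference 3.85, SE 0.54, limma BH adjusted p = 0.00758), and the call held without any 1 library and with the block (adjusted p = 0.00393, 9.71% of genes called). Galr1 had 1646, 3055 and 2224 normalized counts in Sox2-high and 1399, 631 and 1677 in Sox2-negative libraries, which overlapped (log2 difference 0.97, SE 0.48, limma BH adjusted p = 0.48), and Sstr1 had 1406, 2309 and 1942 and 1731, 822 and 2255, also overlapping (log2 difference 0.32, SE 0.39, limma BH adjusted p = 0.905). Hrh2 had the lower values in Sox2-high libraries, 0, 19.8 and 21 against 63.3, 80.0 and 24.9, without overlap and short of the threshold (log2 difference -2.74, SE 1.17, limma BH adjusted p = 0.383). The other 5 had log2 differences of -1.39 to 0.48 and adjusted p of 0.738 or more. The median was 0.32 over the 9 receptors and 0.0193 over all genes, and the Sox2-high libraries are shared with the comparison above. Pan-endocrine markers summed to 4294 to 8958 CPM in the Sox2-negative libraries (2 of 12 higher and 1 lower in Sox2-high), all 4 enterochromaffin markers rose and 3 of 9 tuft markers fell. Immune markers summed to 6.04 to 12.1 CPM in the Sox2-high against 60.1 to 678 CPM in the Sox2-negative libraries, and the part of these in the differences was not tested. Few pathway genes were called, with Prkce (2.43, SE 0.39, adjusted p = 0.0145) and Plcb4 (1.61, SE 0.30, adjusted p = 0.0273) higher and Plcb2 (-4.90, SE 0.62, adjusted p = 0.00479) and Sctr (-3.06, SE 0.63, adjusted p = 0.0435) lower.

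Between Sox2-low and Sox2-negative cells no receptor passed. limma called 0% of all genes, with or without the block, and 966 genes and 4 of the 9 receptors had an unadjusted p under 0.05. edgeR on recovered reads called none either. The 4 were Galr1 (155, 264 and 429 against 1399, 631 and 1677 normalized counts, log2 difference -2.13, SE 0.48, limma BH adjusted p = 0.499), Sstr1 (413, 368 and 537 against 1731, 822 and 2255, log2 difference -1.76, SE 0.39, limma BH adjusted p = 0.499), Cckbr (log2 difference -2.21, SE 0.70, limma BH adjusted p = 0.596) and Sstr2 (log2 difference -1.36, SE 0.52, limma BH adjusted p = 0.661). In each of the 4 the Sox2-low libraries were the lower ones and did not overlap the Sox2-negative libraries. Picking receptors by unadjusted p favours such gaps, and the share of all genes without overlap was not counted. No receptor passed when any 1 of the 6 libraries was left out. The median was -1.76 over the 9 receptors and 0.0114 over all genes. Pan-endocrine markers summed to 1362 to 2827 against 4294 to 8958 CPM (median log2 difference -1.60), ECL markers to 208 to 562 against 1059 to 2062 (-2.45) and immune markers to 10.1 to 16.2 against 60.1 to 678 (-4.16), with Cd3e at 0 in Sox2-low and no gene of these lists past the threshold, and their part was not tested.

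No receptor differed between Lgr5-positive and Lgr5-negative cells of the antrum at the threshold. limma called 0% of 14047 genes, while 1017 genes and 1 of the 8 receptors tested had an unadjusted p under 0.05, and Vipr1 was too low to be tested. edgeR on recovered reads called no gene. The 1 receptor was Chrm3. It had 470.5, 465 and 202 normalized counts in Lgr5-positive and 126, 123 and 123 in Lgr5-negative libraries, which did not overlap (log2 difference 1.504, SE 0.41, limma BH adjusted p = 0.361, and 0.0541 in the blocked fit). edgeR with the sort-day block, added after the values were seen, gave it an adjusted p of 0.0472 at a log2 difference of 1.52. Casr had the lower values in Lgr5-positive cells on 3 of 3 sort days (44.6, 256 and 88 against 101, 477 and 322 normalized counts, log2 difference -1.31, SE 0.79, limma BH adjusted p = 0.822, and 0.0684 in the blocked fit), and the groups overlapped across days. The remaining log2 differences were 2.22 (Hrh2), 1.41 (Cckbr), 0.47 (Adcyap1r1), -0.30 (Galr1), -0.37 (Sstr2) and -0.90 (Sstr1), with adjusted p of 0.78 to 0.965. Of these, Hrh2 and Cckbr were higher in Lgr5-positive cells on 3 of 3 sort days, with groups that overlapped across days. With the block, 3.18% of genes were called and none of the receptors. Over the 8 receptors the median was 0.085, and over all genes -0.0423. Of the 7 lists of ligands, other receptors and signalling genes, none had a called gene without the block. With it, 3 of 9 other receptors of the same families rose and 1 fell, 2 of 5 ligand genes fell, and 2 of 8 other receptors of gastric secretion, 1 of 14 G protein alpha subunits and 2 of 15 desensitization genes rose. Somatostatin (Sst), the marker of D cells, was at 211 to 619 CPM in Lgr5-positive and 1719.6 to 6121 in Lgr5-negative libraries, chief markers summed to 102971 to 190690.0 and 8722 to 18113 CPM, and parietal markers to 1222 to 4888 and 385 to 971 CPM. The part of these in the differences was not tested.

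In the corpus, cells without Sox2 carried far more Cckbr, Vipr1 and Galr1 and somewhat more Sstr2 than Sox2-positive cells, and less Chrm3. Of the 9 receptors, 4 fell and 1 rose in Sox2-positive cells, where 9.73% of all genes were called (8.02% lower and 1.7% higher). Galr1, which is among the 4, reached 10 normalized counts only in Sox2-negative libraries. It met the filter through that group alone and could only be called lower, so its call adds no support of its own. Cckbr had 306, 485 and 373 normalized counts in Sox2-positive and 2499.7, 6333 and 3613 in Sox2-negative libraries (log2 difference -3.33, SE 0.32, limma BH adjusted p = 0.000498). Galr1 had 0.658, 6.42 and 2.31 and 128, 186 and 113 (log2 difference -5.34, SE 0.57, limma BH adjusted p = 0.000559), and Vipr1 had 3.29, 62.4 and 19.3 and 401, 779.8 and 586 (log2 difference -5.01, SE 0.87, limma BH adjusted p = 0.0103). In each of these 3 the Sox2-negative libraries were all above the Sox2-positive ones. Sstr2 had 735, 636 and 566 and 1259, 1903 and 1360.1, a smaller and even gap (log2 difference -1.21, SE 0.17, limma BH adjusted p = 0.00222). Chrm3 went the other way, with 149, 224 and 157 in Sox2-positive and 94.8, 78.4 and 90.1 in Sox2-negative libraries, which did not overlap (log2 difference 0.98, SE 0.25, limma BH adjusted p = 0.0353). Its call ended whichever of the 6 libraries was left out (log2 0.80 to 1.09, adjusted p = 0.053 to 0.154). Without any 1 Sox2-negative library, Galr1 no longer had 10 normalized counts in 3 libraries and was not tested. The call of Vipr1 ended without Sox2-negative library 2 (-4.78, adjusted p = 0.0864) and without Sox2-positive library 3 (-5.11, 0.0592). Hrh2 had 1312, 1041 and 992 in Sox2-positive and 1828, 949 and 1048 in Sox2-negative libraries, which overlapped (log2 difference -0.14, SE 0.23, limma BH adjusted p = 0.844). Casr, Sstr1 and Adcyap1r1 did not pass (-0.46, 0.78 and 0.84, adjusted p = 0.728, 0.548 and 0.587). The median was -0.46 over the 9 receptors and 0.0142 over all genes.

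ECL markers summed to 1169.9 to 1615 CPM in Sox2-positive and 18079 to 44634 in Sox2-negative libraries, and 3 of 3 fell. Of 12 pan-endocrine markers 7 fell, and the ghrelin cell pair Ghrl and Mboat4 fell, with sums of 352 to 961 and 2192 to 2869 CPM. Parietal markers summed to 15471 to 23587 and 13642 to 23495 CPM, and 1 of 11 rose. Tuft markers rose in 7 of 9 (sums of 1573 to 3638 and 889 to 1395 CPM). Mast cell markers summed to 47.7 to 1045 CPM in the Sox2-negative and 62.9 to 117 in the Sox2-positive libraries, where Cpa3 and Fcer1a were at 0, and 2 fell. The part of these markers in the receptor differences was not tested.

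Of ligand genes, 2 of 5 rose and 2 fell (median 1.27). The histamine pair Hdc (-4.40, SE 0.41, adjusted p = 0.000863) and Slc18a2 (-3.99, SE 0.37, adjusted p = 0.000669) fell, and Chat (2.13, SE 0.41, adjusted p = 0.0107), which makes acetylcholine, and Sst (1.27, SE 0.32, adjusted p = 0.0437) rose. Of other receptors of the same families, 0 of 8 rose and 1 fell (median -0.30), Sstr3 (-2.81, SE 0.47, adjusted p = 0.00496), and of other receptors of gastric secretion, 0 of 10 rose and 3 fell (median -0.0845), the prostaglandin E2 receptors Ptger2 (-4.24, SE 0.52, adjusted p = 0.00106) and Ptger3 (-1.96, SE 0.44, adjusted p = 0.0225) and Adrb1 (-2.49, SE 0.46, adjusted p = 0.00802). Of 13 G protein alpha subunits 3 fell, Gnao1 (-3.15, SE 0.35, adjusted p = 0.000683), Gnaz (-1.74, SE 0.23, adjusted p = 0.00147) and Gnaq (-0.65, SE 0.15, adjusted p = 0.027). Of 21 cAMP genes 6 fell, among them the adenylyl cyclases Adcy5 (-3.12, SE 0.35, adjusted p = 0.000683), Adcy3 (-3.33, SE 0.47, adjusted p = 0.00201) and Adcy1 (-4.94, SE 0.78, adjusted p = 0.00373), and Prkar1b (-3.06, SE 0.31, adjusted p = 0.00048). Of phospholipase C and calcium genes, 1 of 19 rose and 3 fell (median -0.0458), led by Prkcb (-4.16, SE 0.29, adjusted p = 0.000103). Of desensitization genes, 1 of 11 rose and 2 fell (median -0.0689), with the CGRP co-receptor Ramp1 (-2.30, SE 0.26, adjusted p = 0.000727) lower and Rgs2 (1.14, SE 0.22, adjusted p = 0.01) higher.

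**Figure D2:**
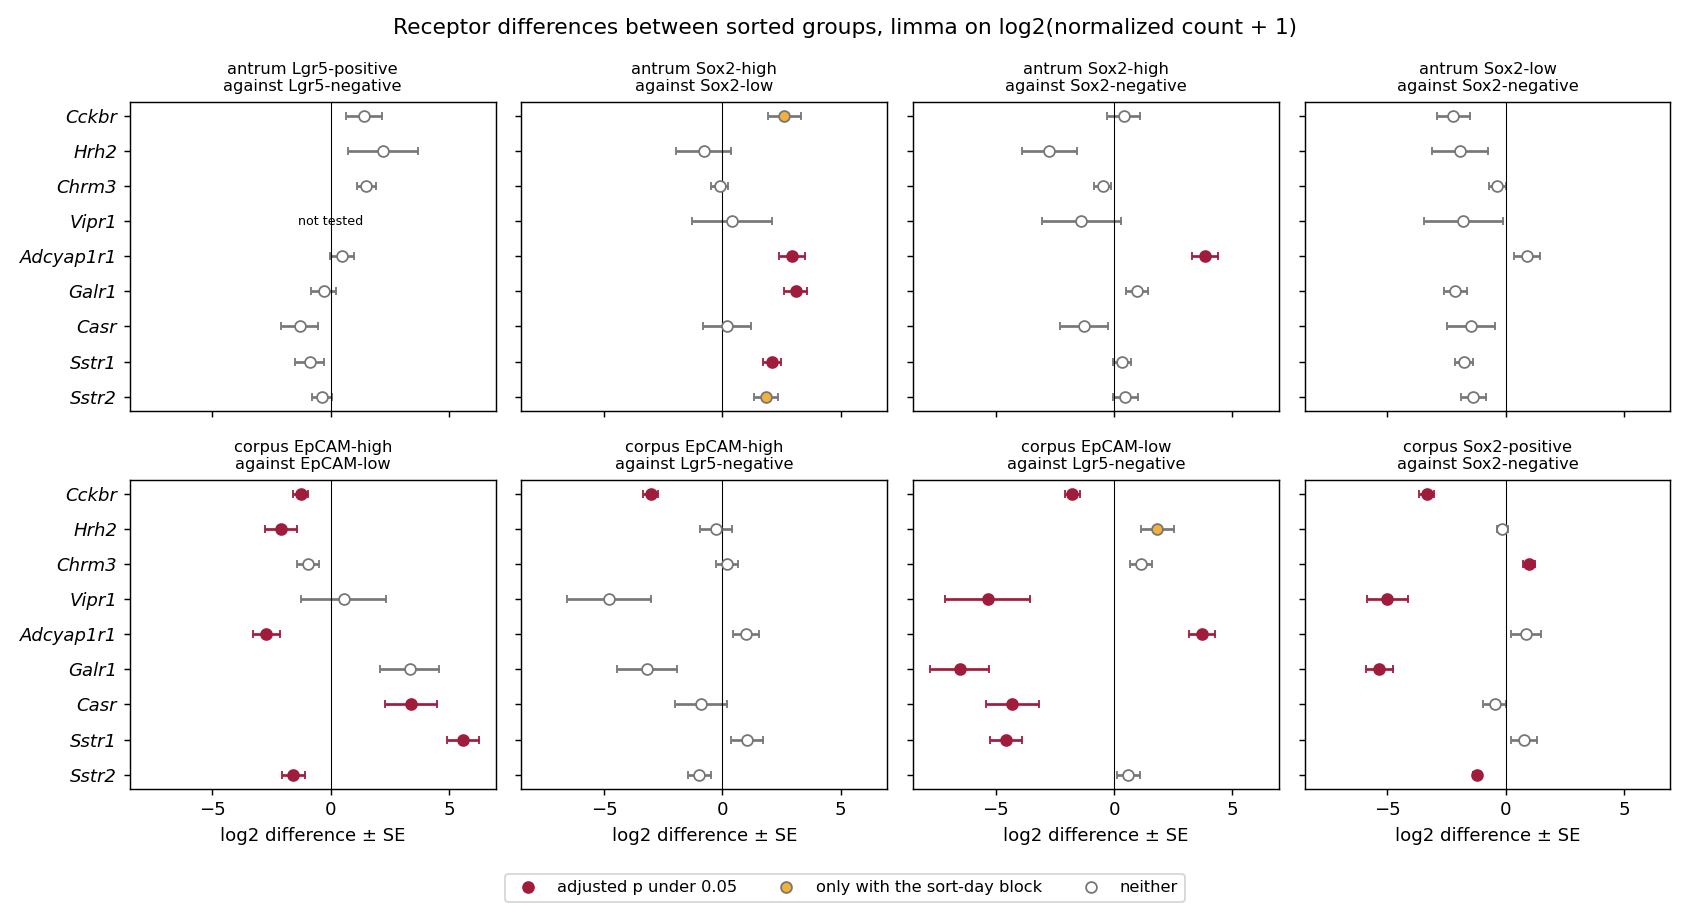
Log2 difference ± SE of each receptor in 8 comparisons (limma, log2(normalized count + 1)), with filled red points for adjusted p under 0.05 and yellow points for those that pass only with the sort-day block. Galr1, Sstr1 and Adcyap1r1 lie to the right in antrum Sox2-high against Sox2-low cells, and Cckbr lies to the left in the comparisons of corpus Lgr5-positive or Sox2-positive with negative cells.

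**Figure D3:**
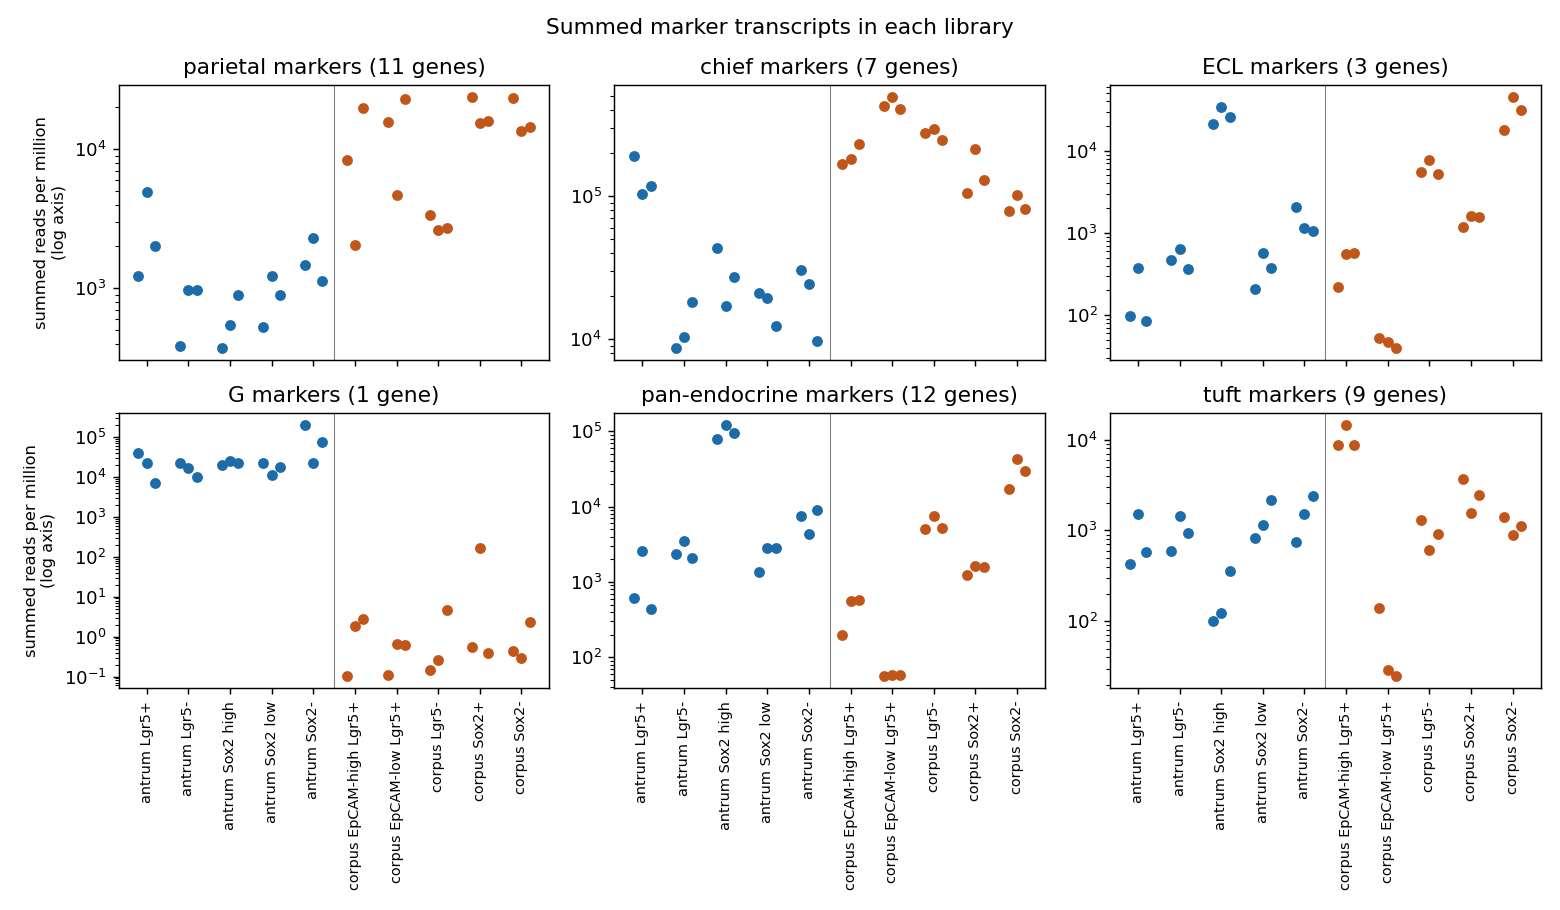
Summed markers of 6 cell types in each library, in CPM on a logarithmic axis (blue antrum, orange corpus). ECL and pan-endocrine sums are highest in antrum Sox2-high and corpus Sox2-negative libraries and lowest in corpus EpCAM-low libraries, tuft sums are highest in EpCAM-high libraries, and gastrin marks the antrum. Most of the ECL sum is Chga, a pan-endocrine marker. The means of Hdc and Slc18a2 are larger in corpus Lgr5-negative (529 and 305 CPM) than in antrum Sox2-high libraries (176 and 271 CPM).

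Both Lgr5-positive populations of the corpus carried less Cckbr than Lgr5-negative cells. Cckbr had 203, 133 and 284 normalized counts in EpCAM-high, 408, 392 and 678 in EpCAM-low and 1732, 1806 and 1344 in Lgr5-negative libraries. The 3 groups did not overlap, although in CPM the EpCAM-high and EpCAM-low libraries did. In EpCAM-high cells it was the 1 receptor of 9 that passed against Lgr5-negative cells (log2 difference -3.03, SE 0.32, limma BH adjusted p = 0.000595), where 21.1% of all genes were called. The median was -0.91 over the 9 receptors and -0.0643 over all genes. Vipr1 had 1.07, 1.15 and 55.9 in EpCAM-high and 149.8, 219 and 161 in Lgr5-negative libraries (log2 difference -4.79, SE 1.79, limma BH adjusted p = 0.0883), and Galr1 had 0, 19.5 and 48.6 and 61.1, 110.0 and 113 (log2 difference -3.20, SE 1.26, limma BH adjusted p = 0.103). In both genes the EpCAM-high libraries were all the lower ones, and both passed without EpCAM-high library 3 (-6.38 and -4.35, adjusted p = 0.0429 and 0.0461). The other 6 had log2 differences of -0.98 to 1.03, none past the threshold (adjusted p = 0.181 to 0.826). ECL markers (3 of 3) and 10 of 12 pan-endocrine markers fell in EpCAM-high cells, with sums of 216 to 565 against 5229 to 7714 and 199 to 575 against 5082 to 7567 CPM and Pax6 at 0. Tuft markers rose in 9 of 9 (8628 to 14414 against 601 to 1300.5 CPM). The part of these in the differences was not tested.

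EpCAM-low cells carried less Galr1, Sstr1, Casr, Vipr1 and Cckbr than Lgr5-negative cells and more Adcyap1r1. Of the 9 receptors 1 rose and 5 fell, where 30.9% of all genes were called (12.9% higher and 18% lower). Adcyap1r1 had 336, 466 and 228 normalized counts in EpCAM-low and 27.5, 29.3 and 17 in Lgr5-negative libraries, far apart (log2 difference 3.73, SE 0.56, limma BH adjusted p = 0.00168). In CPM the gap was smaller, 2.78, 2.49 and 2.29 against 0.864, 0.828 and 0.538 CPM, and still without overlap. Galr1 had no read in the 3 EpCAM-low libraries and 234 reads in the Lgr5-negative libraries, which with 3 reads per library as the floor makes it at least 11.1-fold lower in normalized counts and at least 43.5-fold lower in CPM (log2 difference -6.53, SE 1.26, limma BH adjusted p = 0.00492, where the size depends on the pseudocount). Sstr1 had 1 read against 80, a ratio of 149.7 in reads per total read with an exact 95% counting interval of 26.1 to 5988, and mean normalized counts of 0.648 and 33 (log2 difference -4.56, SE 0.68, limma BH adjusted p = 0.00165). Casr had 5 reads against 141, a ratio of 52.8 per total read with an interval of 22.1 to 165, and mean normalized counts of 5.21 and 56.2, a smaller ratio (log2 difference -4.30, SE 1.10, limma BH adjusted p = 0.0168). edgeR on recovered reads ended this call (-3.48, adjusted p = 0.0581). These intervals cover counting error only. Vipr1 had 79.7, 0 and 0 against 149.8, 219 and 161 normalized counts (log2 difference -5.34, SE 1.79, limma BH adjusted p = 0.0478, and 0.0538 in the blocked fit), and edgeR ended the call (-2.68, adjusted p = 0.234). Cckbr fell too (log2 difference -1.76, SE 0.32, limma BH adjusted p = 0.00395). Hrh2 had 2025, 718 and 2795 against 378, 397 and 594 without overlap (log2 difference 1.84, SE 0.69, limma BH adjusted p = 0.0696, and 0.0098 in the blocked fit, under which 34% of genes were called). Chrm3 and Sstr2 did not pass (1.14 and 0.61, adjusted p = 0.0816 and 0.358). The median was -1.76 over the 9 receptors, the value of Cckbr, and -0.19 over all genes. The call of Vipr1 ended without any of the 3 Lgr5-negative libraries or EpCAM-low library 2 or 3 (log2 -5.45 to -4.28, adjusted p = 0.108 to 0.134), and that of Casr without Lgr5-negative library 2 or 3 (log2 -4.17 to -3.89, adjusted p = 0.0612 to 0.072). Hrh2 passed without EpCAM-low library 2 (2.41, 0.0299) and Chrm3 without EpCAM-low library 1 (1.46, 0.0379).

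Part of this comparison depended on the scaling, and it shares its Lgr5-negative libraries with the one before. With reads scaled to each library's total, an alternative added after the EpCAM-low libraries were seen to spend most reads on few genes, the median log2 difference of all genes moved from -0.19 to -2.11, and the genes called went from 1915 higher and 2675 lower to 118 higher and 12001 lower. Hrh2, Chrm3 and Sstr2 then changed sign (-0.16, -0.83 and -1.39, limma BH adjusted p = 0.839, 0.154 and 0.035). Adcyap1r1 stayed higher (1.75, 0.00944), and Cckbr, Galr1, Sstr1, Casr and Vipr1 stayed lower (-3.74, -6.60, -4.93, -4.82 and -6.00). Relative to the median of all genes under either scaling, Hrh2 lay above it and Cckbr below it.

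**Figure D4:**
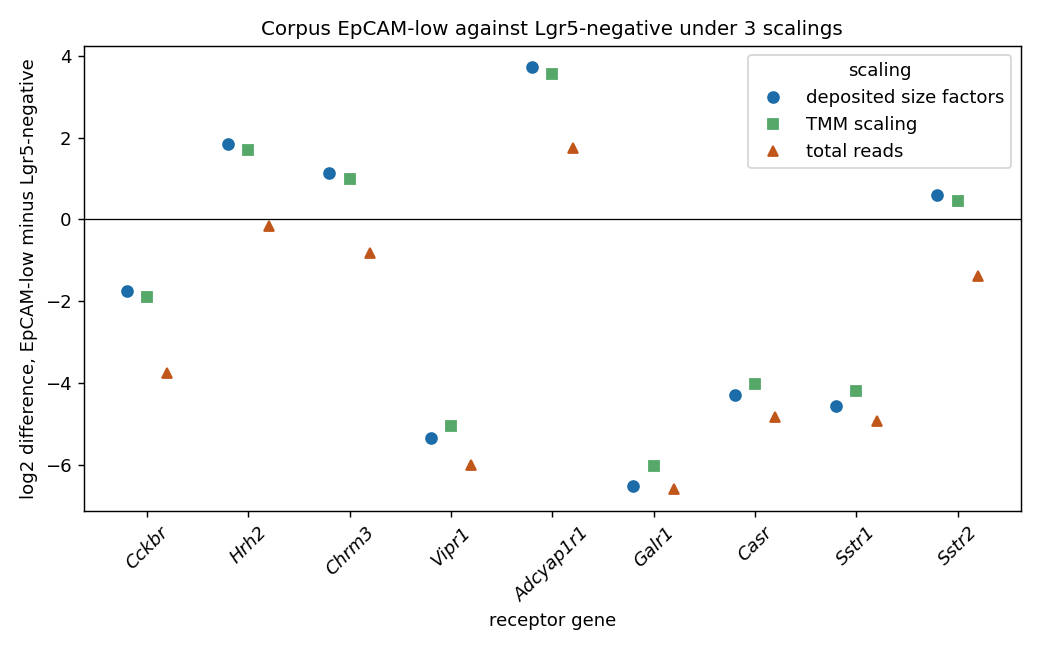
Log2 difference of each receptor between corpus EpCAM-low and Lgr5-negative cells (vertical axis) under the deposited size factors, TMM scaling and scaling to total reads. The first pair lie close together, while the total-read values are lower for every receptor and fall below 0 for Hrh2, Chrm3 and Sstr2.

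ECL, enterochromaffin and ghrelin cell markers all fell in EpCAM-low cells (3 of 3, 4 of 4 and 2 of 2), as did 9 of 12 pan-endocrine markers, with pan-endocrine sums of 57.1 to 58.1 against 5082 to 7567 CPM. Tph1, which defines enterochromaffin cells, was at 0, and Sst was at 0.369 to 15.4 against 812 to 1963 CPM. Parietal markers rose in 8 of 10 tested, with sums of 4665 to 23139 against 2614 to 3345 CPM, and the EpCAM-low libraries followed one order in parietal markers and in the CPM of Hrh2, Cckbr and Sstr2 (lowest in library 2, highest in library 3). General epithelial sums had this order too (1110, 653 and 1351 CPM). The share of the 10 most abundant genes ran the opposite way (80.9, 88.2 and 75.8%). Adcyap1r1 did not follow the order (2.78, 2.49 and 2.29 CPM). Chief markers rose in 3 of 5 and fell in 1 (408943 to 489359 against 247132 to 295755 CPM, Lipf at 0 in both), and tuft markers fell in 7 of 9 (25.3 to 141 against 601 to 1300.5 CPM), pit markers in 4 of 5 (718 to 2115 against 14034 to 45562 CPM) and general epithelial markers in 5 of 7 (653 to 1351 against 7822 to 9708 CPM). The part of these markers in the receptor differences was not tested. Of ligand genes, 0 of 5 rose and 4 fell (median -4.23), namely Slc18a2 (-4.82, SE 0.49, adjusted p = 0.000376), Hdc (-4.23, SE 0.44, adjusted p = 0.00041), Sst (-6.85, SE 1.40, adjusted p = 0.00625) and Chat (-2.81, SE 0.95, adjusted p = 0.0485). Of other receptors of the same families, 2 of 8 rose and 2 fell (median -0.997). The cholecystokinin A receptor of chief cells, Cckar (2.63, SE 0.32, adjusted p = 0.000775), and the second VIP receptor, Vipr2 (2.63, SE 0.50, adjusted p = 0.00459), rose, and Gipr (-5.47, SE 1.05, adjusted p = 0.00472) and Sstr3 (-3.98, SE 1.10, adjusted p = 0.0223) fell. Of other receptors of gastric secretion, 1 of 11 rose and 4 fell (median -2.31), with Ptger3 (2.27, SE 0.40, adjusted p = 0.00329) higher and Adra2a (-2.31, SE 0.51, adjusted p = 0.00857) and Egfr (-1.33, SE 0.42, adjusted p = 0.0389) among the lower. The calls of list and marker genes in this paragraph use the deposited size factors, and small differences may depend on the scaling. In CPM, Ptger3 overlapped between EpCAM-low (18.1 to 31.9) and Lgr5-negative (15.2 to 23.5) libraries. Cckar and Vipr2 stayed higher in CPM in every EpCAM-low library than in any Lgr5-negative library. Of G protein alpha subunits, 0 of 13 rose and 1 fell (median -0.22), Gnao1 (-6.11, SE 1.33, adjusted p = 0.00813), of cAMP genes, 1 of 19 rose and 5 fell (median -0.16), of phospholipase C and calcium genes, 2 of 20 rose and 8 fell (median -0.53), and of desensitization genes, 1 of 12 rose and 7 fell (median -0.92).

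Between the 2 Lgr5-positive populations of the corpus, Sstr1 and Casr were higher in EpCAM-high cells. Adcyap1r1, Cckbr, Hrh2 and Sstr2 were lower in normalized counts, and these 4 depended on the scaling. The counts were 2 receptors higher and 4 lower of 9, where 31.8% of all genes were called (17.5% higher and 14.3% lower). Sstr1 had 59, 101 and 52.2 normalized counts in EpCAM-high and 1.94, 0 and 0 in EpCAM-low libraries (log2 difference 5.58, SE 0.68, limma BH adjusted p = 0.000359), and Casr had 29, 18.3 and 31.6 and 0, 0 and 15.6 (log2 difference 3.38, SE 1.10, limma BH adjusted p = 0.0425). Neither pair of groups overlapped. Sstr1 read counts were 186 and 1, a ratio of 324 per total read with an exact 95% counting interval of 57.5 to 12869, and the mean normalized counts were 70.7 and 0.648. Adcyap1r1 had 30.0, 39 and 101 in EpCAM-high and 336, 466 and 228 in EpCAM-low libraries (log2 difference -2.72, SE 0.56, limma BH adjusted p = 0.00546), and Cckbr fell by 1.27 on the log2 scale (adjusted p = 0.015), both without overlap. Hrh2 had 371, 136 and 1009.6 and 2025, 718 and 2795 (log2 difference -2.10, SE 0.69, limma BH adjusted p = 0.0434), and Sstr2 had 435, 199 and 663 and 1175, 645 and 2061 (log2 difference -1.58, SE 0.48, limma BH adjusted p = 0.0315). In both the groups overlapped, and EpCAM-high lay below EpCAM-low on each of 3 sort days. Galr1 had 0, 19.5 and 48.6 against no read (log2 difference 3.33, SE 1.26, limma BH adjusted p = 0.0706), and Chrm3 and Vipr1 did not pass (-0.96 and 0.55, adjusted p = 0.133 and 0.84). The median was -0.96 over the 9 receptors, the value of Chrm3, and 0.0657 over all genes. With total-read scaling the median of all genes moved from 0.066 to 2.02, and the genes called went from 2595 higher and 2119 lower to 11230 higher and 146 lower. Cckbr, Sstr2 and Chrm3 then changed sign (0.74, 0.43 and 1.04), Hrh2 and Adcyap1r1 did not pass (-0.0811 and -0.71, adjusted p = 0.925 and 0.241), and Sstr1, Casr and Galr1 passed (5.99, 3.94 and 3.36, adjusted p = 6.01e-06, 0.00089 and 0.0173). Relative to the median of all genes, Cckbr, Hrh2, Sstr2, Adcyap1r1 and Chrm3 lay below it and Sstr1, Casr and Galr1 above it under both scalings. The call of Casr ended with a pseudocount of 10 (1.39, adjusted p = 0.0594), without the filter (3.38, adjusted p = 0.0518) and by edgeR (2.41, adjusted p = 0.156), as did that of Hrh2 by edgeR (-1.82, adjusted p = 0.0657). Without 1 library, the call of Casr ended in 5 of 6 cases (all but EpCAM-low library 3; log2 2.71 to 3.61, adjusted p = 0.085 to 0.11), those of Hrh2 and Sstr2 in 4 of 6 (EpCAM-low library 1 or 3, EpCAM-high library 1 or 2; log2 -2.10 to -1.38, adjusted p = 0.0941 to 0.141, and log2 -1.67 to -1.11, adjusted p = 0.0611 to 0.105), and that of Cckbr without EpCAM-high library 2 (-0.99, 0.0522). Galr1 passed without EpCAM-high library 1 (4.99, 0.00255).

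Tuft markers rose in 9 of 9 in EpCAM-high cells, with sums of 8628 to 14414 against 25.3 to 141 CPM, and 9 of 10 parietal markers fell, with sums of 2054 to 19944 against 4665 to 23139 CPM that overlap. Mast cell markers summed to 252 to 325 and 5.29 to 23.3 CPM, with Cpa3, Mcpt2 and Fcer1a at 0 in both. The part of these markers in the receptor differences was not tested. Of ligand genes, 1 of 5 rose and 0 fell (median 1.04), the acetylcholine enzyme Chat (7.51, SE 0.95, adjusted p = 0.00044). Of other receptors of the same families, 0 of 8 rose and 3 fell (median -0.26), namely Cckar (-3.28, SE 0.32, adjusted p = 0.000126), Vipr2 (-3.78, SE 0.50, adjusted p = 0.000553) and Glp1r (-1.86, SE 0.32, adjusted p = 0.00231), and of other receptors of gastric secretion, 1 of 11 rose and 2 fell (median -0.0476), with the alpha-2A adrenoceptor Adra2a (4.78, SE 0.51, adjusted p = 0.000178) higher and Ptger3 (-3.03, SE 0.40, adjusted p = 0.000537) and Tgfbr2 (-1.08, SE 0.20, adjusted p = 0.00307) lower. Of G protein alpha subunits, 4 of 13 rose and 2 fell (median 0.47), with Gnai2 (2.85, SE 0.23, adjusted p = 5.49e-05), Gna12 (1.97, SE 0.22, adjusted p = 0.000213), Gna14 (2.42, SE 0.36, adjusted p = 0.00101) and the taste transduction subunit Gnat3 (3.98, SE 0.96, adjusted p = 0.0123) higher and Gnaz (-1.49, SE 0.29, adjusted p = 0.00409) and Gnai1 (-1.06, SE 0.31, adjusted p = 0.0291) lower. Of cAMP genes, 4 of 19 rose and 4 fell (median 0.63), and of phospholipase C and calcium genes, 10 of 20 rose and 2 fell (median 0.99), with Plcb2 (6.36, SE 0.74, adjusted p = 0.000292), Atp2a3 (4.04, SE 0.35, adjusted p = 7.14e-05) and Itpr2 (2.21, SE 0.37, adjusted p = 0.00198) higher. Of desensitization genes, 8 of 12 rose and 2 fell (median 1.45), led by Rgs2 (5.43, SE 0.41, adjusted p = 4.48e-05). These calls of list and marker genes use the deposited size factors, and small differences may depend on the scaling. In CPM, Cckar, Vipr2 and Ptger3 stayed lower in every EpCAM-high library than in any EpCAM-low library. Glp1r did not, at 3.96 to 7.54 CPM in EpCAM-high and 4.7 to 5.38 CPM in EpCAM-low libraries.

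Whether the gates differed in the same way in both tissues was tested as a difference of differences, on recovered reads scaled jointly. Against the corpus EpCAM-high Lgr5 difference, 1 of 9 receptors had the larger antrum difference (Cckbr), where 4.04% of all genes were called, and against the EpCAM-low difference 3 were larger (Cckbr, Galr1 and Sstr1) and 1 smaller (Adcyap1r1), where 3.99% were called. Against the corpus Sox2 difference, the antrum Sox2-high difference was larger for Cckbr and Galr1 and smaller for Chrm3, where 6.63% of genes were called. For the antrum Sox2-low difference no receptor passed by limma or edgeR (0.0362% of genes called). Sstr1, Hrh2 and Casr did not pass in the Sox2-high test (-0.52, -2.72 and -0.86, limma BH adjusted p = 0.843, 0.375 and 0.894). Sstr2 passed there without antrum Sox2-negative library 1 (2.12, adjusted p = 0.0192) or antrum Sox2-high library 1 (1.997, 0.0425), and Adcyap1r1 without corpus Sox2-negative library 3 (3.62, 0.0289). When sort day was a block, Adcyap1r1 passed in the Sox2-high test (2.97, limma BH adjusted p = 0.0814, and 0.0214 in the blocked fit, under which 15% of genes were called), and Galr1 passed in the Sox2-low test (3.39, limma BH adjusted p = 0.235, and 0.0466 in the blocked fit, with 0.61% of genes called).

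The authors' deposited tables hold 3 of these comparisons. Their mean signals differ from the means over the count tables, and the libraries behind them are not named. In the corpus they were 149.7 against 26.5 for Sstr1 and 524 against 1373 for Cckbr, and in the antrum 426 against 94.5 for Adcyap1r1. The authors' fold changes may therefore not rest on the same libraries or scaling as the values above. For Sox2-high against Sox2-low, the authors' deposited table gives log2 fold changes of 3.01 for Galr1 (adjusted p = 0.000693), 2.996 for Adcyap1r1 (0.0806), 2.69 for Cckbr (0.189) and 2.08 for Sstr1 (0.176). In the authors' deposited table for the antrum Lgr5 groups, signs run negative over positive (150 of its 150 genes under 0.05 have the opposite sign here), and Chrm3 is at -1.61 (adjusted p = 0.125). In the authors' deposited table for the corpus EpCAM groups, 2816 of 2914 such genes have the opposite sign, which puts EpCAM-low over EpCAM-high. It gives Adcyap1r1 at 3.50 (adjusted p = 3.01e-11), Galr1 at -7.98 (0.000945), Sstr1 at -6.18 (0.00375) and Casr at -3.97 (0.0279). Cckbr is at -1.13 in the authors' deposited table (adjusted p = 0.641), opposite in direction to the difference in normalized counts. Hrh2, Sstr2 and Chrm3 are at 2.43, 1.26 and 0.70 (0.398, 0.418 and 0.388), in the direction of the normalized counts. Total-read scaling gave 0.74, 0.43 and 1.04 for Cckbr, Sstr2 and Chrm3 in EpCAM-high against EpCAM-low. Its direction is that of the authors' table for Cckbr and not for Sstr2 or Chrm3.

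Over the 30 libraries the receptors formed 2 blocks by likeness, given as the Pearson correlation of log2(CPM + 1) without a test, since the libraries share tissues, gates and depth. Galr1, Sstr1 and Casr went together (r = 0.911 for Galr1 and Sstr1, 0.875 for Casr and Sstr1, 0.865 for Galr1 and Casr). Cckbr went with Sstr2 (0.882), Vipr1 (0.819) and Hrh2 (0.736), and Hrh2 ran against Sstr1 (-0.775) and Galr1 (-0.647). Among 12954 genes with a mean of at least 1 CPM, the 3 most like each receptor were Ptf1a (0.939), Pappa2 (0.939) and C8b (0.934) for Cckbr, and Smarcd3 (0.984), Esrrg (0.968) and Fa2h (0.961) for Hrh2. They were Hpn (0.856), Car12 (0.851) and Ppp1r1b (0.851) for Chrm3, Ptger2 (0.946), Nphs1 (0.916) and Slc39a5 (0.915) for Vipr1, and Vwa3a (0.856), Kcnj1 (0.849) and Prss12 (0.846) for Adcyap1r1. For Galr1 they were Tmem163 (0.977), Hspb8 (0.973) and B3gnt9 (0.971), for Sstr1 Etv1 (0.977), Pax6 (0.968) and Rab37 (0.964), for Casr Shc2 (0.945), Aatk (0.942) and Frmd4a (0.938), and for Sstr2 Mturn (0.895), Cckbr (0.882) and Basp1 (0.874). Pairs within the second block reached down to 0.5 (Hrh2 and Vipr1). Chrm3 stood at 0.495, 0.535 and 0.54 with Galr1, Casr and Sstr1, and the closest member to Adcyap1r1 was Galr1 (0.341).

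**Figure D5:**
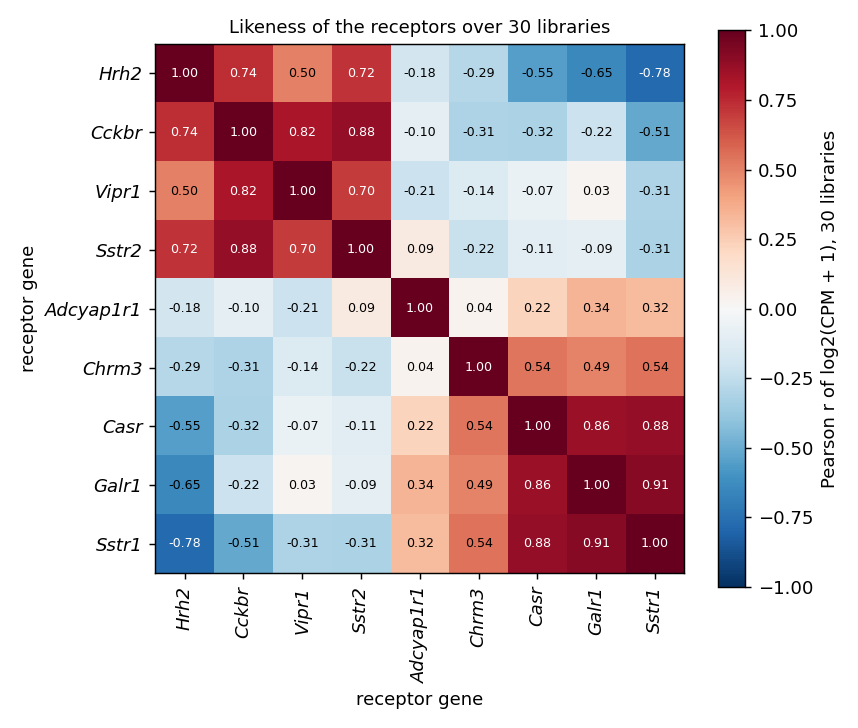
Pearson correlation of log2(CPM + 1) between the 9 receptors over 30 libraries (red positive, blue negative, both axes receptor genes). Galr1, Sstr1 and Casr form one block and Cckbr, Sstr2, Vipr1 and Hrh2 another, with r = -0.775 between Hrh2 and Sstr1.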

How the data were processed

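RNA of sorted mouse stomach cells was sequenced in 30 libraries (RNeasy extraction and SMARTer v4 low-input libraries, per the labels). STAR, HTSeq, DESeq2, edgeR and the build mm9 appear in the submitters' processing notes. The sources used here give no version, role or strand setting, so antisense or overlapping reads cannot be separated. The authors deposited 1 table of normalized signal per tissue, in which each count was divided by its library's size factor. Whole reads were recovered for at least 99.99% of values in every library (tolerance 0.01 read), and CPM are these reads per 1000000 on named genes. Features without a gene name (433) or changed to dates (25) were left out, and took 0.0524 to 0.55% of reads per library. The authors' deposited tables also give log2 fold changes, their adjusted p-values and a mean signal, and the number of sorted cells is theirs. limma 3.58.1 (R 4.3.3, trend and robust) was fitted to log2(normalized count + 1) within each tissue and line, for genes with at least 10 in 3 libraries, with Benjamini-Hochberg adjustment at 0.05, in place of the count model first planned as the unit required. The scripts were tested on simulated data. Alternatives were a pseudocount of 10, no filter, the sort-day block, TMM or RLE scaling, edgeR 4.0.16 on recovered reads and leaving out each library, and, added after the data were seen, total-read scaling and edgeR with the block. Per-kilobase values use GENCODE M21 exon lengths, and promoters are RefSeq's on GRCm38.p6, a different build, so no other coordinates are printed. Replicate numbers match the sort day in 12 of 12 combinations of line, tissue and number and so pair the samples. Deviations of same-numbered libraries from their group means correlated at 0.126 to 0.673 in the antrum and -0.0563 to 0.366 in the corpus. No replicates were duplicates (lowest chi-square per degree of freedom 34.2). The 9 receptors, the gene lists and the marker lists were chosen with earlier results of these data known. The text names all 9 receptors and the 3 genes most like each receptor. In the comparisons, a gene of the ligand, receptor and signalling lists could be named if it passed the threshold with the same sign on 3 of 3 sort days. At most 8 per list and comparison could be named, and many called list genes are only counted. Of the marker and pathway genes, 14 have no row in the tables and were not analysed here.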

Additional observations from a re-analysis of the deposited data

Results flagged for a closer look

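The results given here were picked out because a receptor's difference between 2 gates was not the same in the antrum and the corpus, by a test of that difference itself. Each tissue's own limma values are set beside it. The Sox2 gates were not matched, as Sox2 was at 52.3 to 165 CPM in antrum Sox2-high and 12 to 16.7 CPM in corpus Sox2-positive libraries. With antrum Sox2-low cells (16.1 to 37.6 CPM) in their place, no receptor passed, and Galr1 passed only with the sort-day block. Gate and tissue cannot be told apart in the Sox2-high results below. Cckbr differed in 3 of the 4 tests, of which both Lgr5 tests share the antrum libraries and the corpus Lgr5-negative libraries and are not separate evidence. The antrum Lgr5 difference (1.41) lay above the corpus EpCAM-high difference (-3.03) by 4.35 on the log2 scale (SE 0.82, limma BH adjusted p = 0.0124, and 4.01 with adjusted p = 0.0191 on total-read scaling), and stayed past the threshold in 12 of 12 fits that left out 1 library. It lay above the corpus EpCAM-low difference (-1.76) by 3.20 on the log2 scale (SE 0.82, limma BH adjusted p = 0.0449, and 4.75 with adjusted p = 0.00166 on total-read scaling), past the threshold in 4 of 12 such fits (log2 2.73 to 3.34, adjusted p = 0.0615 to 0.118 in those where it ended, namely without antrum Lgr5-negative library 1 or 2, Lgr5-positive library 3, any corpus Lgr5-negative library, EpCAM-low library 1 or 2). The antrum Sox2-high difference (0.41) lay above the corpus Sox2-positive difference (-3.33) by 3.70 on the log2 scale (SE 0.81, limma BH adjusted p = 0.0124, and 3.74 with adjusted p = 0.00782 on total-read scaling), past the threshold in 12 of 12 fits.

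Galr1 differed by 6.40 on the log2 scale (SE 0.81, limma BH adjusted p = 0.000416, and 6.42 with adjusted p = 0.000354 on total-read scaling) between the antrum Sox2-high (0.97) and corpus Sox2-positive (-5.34) differences, in 12 of 12 fits. Against the corpus EpCAM-low difference, where the 3 EpCAM-low libraries held no read, it differed by 6.01 on the log2 scale (SE 1.48, limma BH adjusted p = 0.0374, and 5.76 with adjusted p = 0.00814 on total-read scaling). That call ended without any antrum or corpus Lgr5-negative library, antrum Lgr5-positive library 2 or EpCAM-low library 3 (log2 5.43 to 6.30, adjusted p = 0.0577 to 0.0942). Sstr1 differed there by 3.51 on the log2 scale (SE 0.92, limma BH adjusted p = 0.0473, and 3.52 with adjusted p = 0.0106 on total-read scaling), and the call ended without any antrum or corpus Lgr5-negative library, antrum Lgr5-positive library 2 or EpCAM-low library 2 or 3 (log2 2.77 to 3.72, adjusted p = 0.0572 to 0.114). Adcyap1r1 differed there by -3.21 on the log2 scale (SE 0.80, limma BH adjusted p = 0.0384, and -1.69 with adjusted p = 0.0819 on total-read scaling), and the call ended without antrum library 2 or 3 of either group or any corpus Lgr5-negative library (log2 -3.33 to -2.84, adjusted p = 0.0537 to 0.105). Chrm3 differed between the antrum Sox2-high (-0.48) and corpus Sox2-positive (0.98) differences by -1.51 on the log2 scale (SE 0.42, limma BH adjusted p = 0.0488, and -1.47 with adjusted p = 0.0602 on total-read scaling), and the call held only without antrum Sox2-high library 3 of the 12 libraries (log2 -1.61 to -1.32, adjusted p = 0.0589 to 0.134 in the others). The groups of the 2 tissues come from the same lines, and marker sums also differ between the tissues, whose part was not tested.

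Of the 4 calls against the EpCAM-low difference, those of Galr1 (2.86, adjusted p = 0.0642) and Sstr1 (0.99, adjusted p = 0.539) ended with a pseudocount of 10. Without a filter on low values those of Cckbr (3.20, adjusted p = 0.0601), Adcyap1r1 (-3.21, adjusted p = 0.0525) and Sstr1 (3.51, adjusted p = 0.0634) ended. By edgeR those of Cckbr (2.88, adjusted p = 0.0631), Galr1 (9.38, adjusted p = 0.0526) and Sstr1 (4.51, adjusted p = 0.0653) ended. Vipr1 passed there without EpCAM-low library 1 (7.74, adjusted p = 0.0189). The call of Chrm3 also ended without a filter (-1.51, adjusted p = 0.0829), with RLE scaling (-1.51, adjusted p = 0.0503) and by edgeR (-1.498, adjusted p = 0.0623).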

How the results depend on the processing

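The sort-day block, which follows the pairing, raised the receptors called in antrum Sox2-high against low from 3 to 5 (also 5 by edgeR with the block) and in the Sox2-low minus corpus Sox2 difference from 0 to 1. edgeR with the block called 1 receptor in antrum Lgr5-positive against negative where limma called 0. The values this block changed are printed with each comparison, and it changed no other call by limma. edgeR with the block also ended the Casr calls in EpCAM-high against low (2.90, adjusted p = 0.13) and in EpCAM-low against Lgr5-negative (-3.82, adjusted p = 0.0636) and the Vipr1 call in the latter (-3.37, adjusted p = 0.24). edgeR without the block ended 8 receptor calls, each printed with its comparison or its difference between tissues. Total-read scaling called 3 in place of 6 in corpus EpCAM-high against low, and 2 in place of 1 in EpCAM-high against Lgr5-negative, where a pseudocount of 10 called 3. In the antrum minus EpCAM-low Lgr5 difference, 4 became 2 with the pseudocount, 1 without a filter and 1 by edgeR. The share of all genes called moved with the setting too, for example from 7.9% to 30.4% with the block in antrum Sox2-high against low. Where no such share is printed, a receptor count shows only how far the calls depend on the setting. The cause of these moves was not tested.

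Directions reversed in few cases. Total-read scaling gave 0.74 for Cckbr, 1.04 for Chrm3 and 0.43 for Sstr2 in EpCAM-high against low, -0.16, -0.83 and -1.39 for Hrh2, Chrm3 and Sstr2 in EpCAM-low against Lgr5-negative, and 0.59 for Sstr2 in the antrum minus EpCAM-low difference. A pseudocount of 10 gave -0.50 for Hrh2 there and -0.0474 for Vipr1 in EpCAM-high against low, where edgeR gave -0.47 and -0.63 with the block. edgeR gave -0.0862 for Cckbr in Sox2-high against negative and 0.18 for Hrh2 in EpCAM-high against Lgr5-negative, and with the block 0.00881 for Hrh2 in Sox2-high against low. The cause was not tested.

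With TMM-scaled CPM, 17 of 90 group levels moved by more than 1 SD, by the construction of the scaling. They became Cckbr 0.906 CPM in antrum Sox2-low, Cckbr 15.3, Hrh2 57.1, Chrm3 6.4, Vipr1 0.818, Adcyap1r1 10.7, Casr 0.161, Sstr1 0.0199 and Sstr2 40.1 CPM in corpus EpCAM-low, Cckbr 56.6, Vipr1 6.13, Sstr1 1.15 and Sstr2 26.5 CPM in corpus Lgr5-negative, Chrm3 4.52 and Sstr2 4.23 CPM in antrum Lgr5-negative, Chrm3 5.92 CPM in antrum Sox2-negative, Chrm3 3.1 CPM in corpus Sox2-negative libraries, and the other 73 moved less.

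Leaving out 1 library moved the number of receptors called to 1 to 4 in antrum Sox2-high against low (all libraries 3), 2 to 5 in corpus EpCAM-high against low (all libraries 6), 1 to 3 in corpus EpCAM-high against Lgr5-negative (all libraries 1), 2 to 4 in corpus Sox2-positive against negative (all libraries 5) and 0 to 4 in the antrum minus EpCAM-low Lgr5 difference (all libraries 4). The share of all genes called in these fits is not given here, so the counts show only how far the calls depend on single libraries. Leaving out 1 library also turned the direction of log2 differences that had not passed. In antrum Lgr5-positive against negative this was Galr1 at -0.88 to 0.13 (all libraries -0.30). In antrum Sox2-high against low these were Hrh2 at -1.55 to 0.67 (all libraries -0.80), Chrm3 at -0.34 to 0.0922 (all libraries -0.12), Vipr1 at -0.99 to 2.01 (all libraries 0.41) and Casr at -0.61 to 1.37 (all libraries 0.18). In antrum Sox2-high against negative these were Cckbr at -0.26 to 1.25 (all libraries 0.41), Vipr1 at -2.27 to 0.22 (all libraries -1.39) and Sstr1 at -0.0966 to 0.63 (all libraries 0.32). In corpus EpCAM-high against low this was Vipr1 at -1.04 to 2.66 (all libraries 0.55). In corpus EpCAM-high against Lgr5-negative these were Hrh2 at -0.99 to 0.45 (all libraries -0.27) and Chrm3 at -0.16 to 0.39 (all libraries 0.19). In corpus Sox2-positive against negative this was Hrh2 at -0.32 to 0.15 (all libraries -0.14). In the antrum minus EpCAM-high Lgr5 difference this was Casr at -1.08 to 0.20 (all libraries -0.48). In the antrum minus EpCAM-low Lgr5 difference this was Hrh2 at -1.01 to 1.58 (all libraries 0.37). In the Sox2-low minus corpus Sox2 difference these were Adcyap1r1 at -0.50 to 0.76 (all libraries 0.10) and Sstr2 at -0.50 to 0.35 (all libraries -0.12). In the Sox2-high minus corpus Sox2 difference this was Casr at -1.68 to 0.36 (all libraries -0.86). Over all such fits, 732 of 855 receptor values kept their direction and their side of the threshold. Vipr1, Galr1, Casr, Hrh2 and Sstr1 each had libraries without a read, where the level could only be given as 0. In corpus Sox2-positive against negative, a count also fell because Galr1 missed the filter without any 1 Sox2-negative library.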

Other observations

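Close relatives of the receptors had levels of their own, given here in CPM as mean ± SD (n = 3) and as a description. Cckar, the cholecystokinin A receptor, had its largest mean in corpus EpCAM-low cells (272 ± 35.9), and was at 177 ± 43.2 in corpus Lgr5-negative and 93 ± 41.5 in corpus Sox2-negative cells. In antrum Lgr5-positive cells Cckar was at 14.9 ± 1.23. Sstr3, another somatostatin receptor, was at 22.2 ± 12.2 in antrum Sox2-negative, 12.9 ± 8.89 in antrum Sox2-high and 11.3 ± 7.1 in corpus Sox2-negative cells. The M1 muscarinic receptor Chrm1 was at 34.9 ± 11 in antrum Lgr5-positive and 18.1 ± 8.23 in antrum Lgr5-negative cells. Of the prostaglandin E2 receptors, Ptger4 had larger means in the 5 antrum groups than in the 5 corpus groups (92 ± 53 in Lgr5-positive and 33.9 ± 23.1 in Sox2-negative cells, against 0.531 ± 0.515 in corpus EpCAM-low cells), and Ptger3 the reverse (23.3 ± 7.5 in EpCAM-low and 19.3 ± 6.75 in Sox2-negative cells, against 1.23 ± 0.546 in antrum Sox2-negative cells).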
